A study of Mus musculus with 6 samples.

Results

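Metallothioneins and a set of small zinc-binding proteins were followed in mouse intestinal organoids, self-organising cultures of gut epithelium. The set held 7 genes, chosen by gene name from the 52249 genes of the deposited count table: Mt1, Mt2, Mtf1, Crip1, Crip2, Csrp1 and Csrp2. All 7 passed the filter on low counts and were among the 10687 genes tested. They were chosen with the fold changes of this same comparison known, so their differences between groups are given as a description, without a test.

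The 6 libraries were sequenced from the 3′ ends of mRNA. The control group was 3 libraries with the genotype Apc-knockout, and the other group was 3 libraries with the genotype Apc-knockout and IGF2BP3 overexpression. Both groups are thus labelled as lacking Apc, the tumour suppressor that holds back WNT signalling, and no library with intact Apc was analysed here. The labels give no mouse strain, age, Cre driver, construct or number of animals, and do not say whether the replicates were separate cultures, so p-values measure the spread between these libraries, which may be technical.

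Metallothioneins are very small, cysteine-rich proteins that hold zinc and copper ions and buffer cells against metal and oxidative stress. Their genes are switched on by MTF1, a zinc-sensing transcription factor that binds metal response elements in their promoters, and also by glucocorticoids. CRIP and CSRP proteins carry LIM domains, folds in which cysteines and histidines hold zinc ions, and CRIP1 takes its name, cysteine-rich intestinal protein, from the gut. CSRP1 and CSRP2 bind actin-associated proteins and are best known from smooth muscle.

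The promoters of the metallothionein genes are shown first, with that of Slc30a1, the zinc exporter that is another classical MTF1 target. Each sequence is RefSeq's window for GRCm38.p6, from 250 bases before to 50 bases after the annotated start site, on the plus strand, 5′ to 3′. Capitals mark the core of the metal response element, searched as TGCACNC and TGCGCNC on both strands, so that a match on the opposite strand is printed as its complement read backwards. Overlapping matches would each be counted.

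Mt1, chr8:94178839-94179138: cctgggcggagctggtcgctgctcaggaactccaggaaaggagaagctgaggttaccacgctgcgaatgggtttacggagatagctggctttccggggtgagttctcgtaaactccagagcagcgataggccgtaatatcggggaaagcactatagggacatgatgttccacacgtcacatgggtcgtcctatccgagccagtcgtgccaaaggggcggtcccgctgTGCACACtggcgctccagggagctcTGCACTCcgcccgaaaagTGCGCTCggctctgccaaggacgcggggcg

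Mt2, chr8:94172368-94172667: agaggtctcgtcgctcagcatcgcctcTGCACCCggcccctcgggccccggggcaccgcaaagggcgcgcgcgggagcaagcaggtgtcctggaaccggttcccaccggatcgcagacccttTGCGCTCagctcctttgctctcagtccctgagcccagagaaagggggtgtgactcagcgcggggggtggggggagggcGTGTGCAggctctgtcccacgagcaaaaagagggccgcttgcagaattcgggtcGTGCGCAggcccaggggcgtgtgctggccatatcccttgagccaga

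Slc30a1, chr1:191906531-191906830: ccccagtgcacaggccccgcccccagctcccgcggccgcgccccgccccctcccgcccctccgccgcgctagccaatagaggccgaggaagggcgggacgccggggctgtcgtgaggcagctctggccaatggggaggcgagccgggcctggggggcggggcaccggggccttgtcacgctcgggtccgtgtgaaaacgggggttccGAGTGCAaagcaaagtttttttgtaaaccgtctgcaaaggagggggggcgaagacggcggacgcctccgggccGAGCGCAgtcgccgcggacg

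The Mt1 window held 3 core matches, all on the strand of the gene, and the Mt2 window held 4, of which 2 lay on the opposite strand. With the start site as position 0, the matches nearest to it began at -23 and 2 in Mt1 and at -50 and 4 in Mt2. These positions rest on RefSeq's start sites, and where transcripts begin in these organoids was not measured. The GENCODE gene model of Mt2 begins further downstream, at 94172664, near the end of the window. Slc30a1 had 2 matches, at -43 and 30. Among all 32851 promoter windows of the same length, 25.7% held at least 1 match, 1.97% at least 3 and 0.518% at least 4. A match is a run of letters and was not tested for binding.

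The other genes differed from each other in these letters. The window of Crip1 and the window of Mtf1 held 0 matches. The GENCODE gene model of Mtf1 begins at 124802104, before its window, which starts at 124802299. Crip2 and Csrp1 each have 2 annotated windows: the windows further upstream held 0, and the downstream ones held 2 and 3. Csrp2 was not among the windows. TATAAA was found on neither strand in any window of the set, against 13.6% of all windows. Only the windows were searched, so TATAAA or core matches beyond their ends would have been missed. A window without a match therefore does not show that its gene lacks one.

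**Figure D1:**
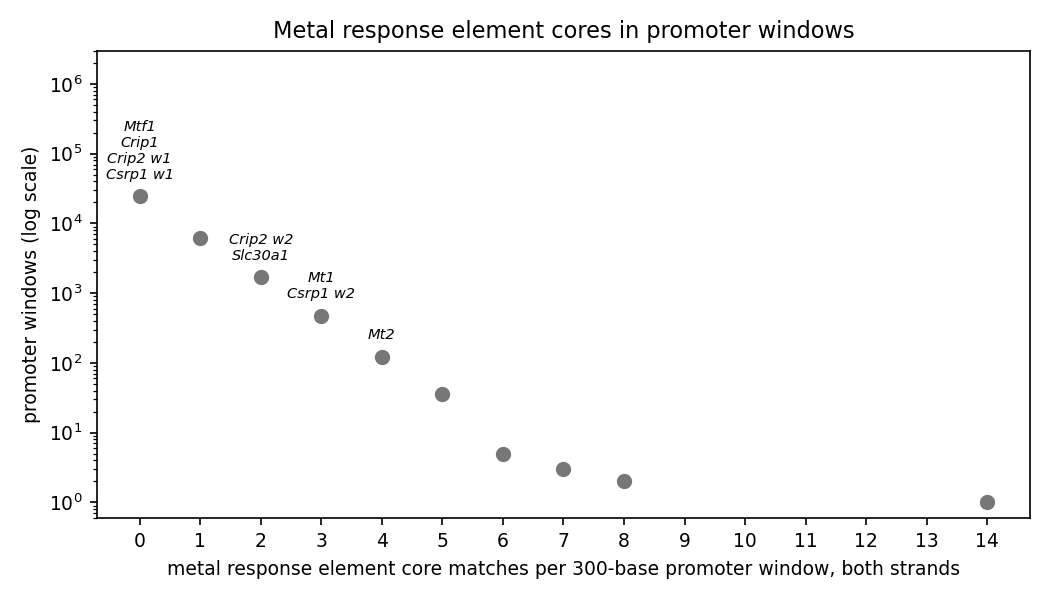
Number of RefSeq promoter windows (log scale) by their count of metal response element core matches on both strands. Names mark the windows of the zinc-binding genes and of Slc30a1, w1 and w2 being the upstream and downstream windows of a gene: Mt2 stands at 4 matches, Mt1 at 3 and Crip1 at 0.

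Library totals lay between 2180116 and 2519917 counts, so that 3 counts, the floor used here, stood for 1.18 to 1.41 CPM (counts per 1000000, scaled by TMM factors for library composition). For Igf2bp3, replicates 1 to 3 held 1, 0 and 0 counts in the control group and the same numbers in the other, so these counts gave no check of the overexpression, and the second group is called OE-labelled. Apc had 182, 174 and 164 counts in the control group against 158, 151 and 148 in the other, and 3′ counts give no check of a deletion elsewhere in the gene. The library names place each group in a library series of its own, so that series and group cannot be told apart. Of 12 markers of intestinal epithelium, 10 were tested and Cdx1 and Krt20 had 0 counts in all libraries. Of 12 markers of smooth muscle and fibroblasts, none had enough counts to be tested, and their summed level was 1.38 to 4.22 CPM in control against 0.405 to 1.69 CPM in OE-labelled libraries. For endothelial cells the sum was at most 1.84 CPM. Of 10 immune markers, 6 were at 0, Adgre1 among them, and Ptprc had at most 2 counts. The summed level of the immune markers was 41.3 to 51.6 CPM in control against 60.9 to 75.8 CPM in OE-labelled libraries. Of the 2 that were tested, Csf1r rose in OE-labelled libraries (log2 fold change 0.68, SE 0.15, edgeR adjusted p = 0.0061). Cd68 did not pass (0.17, SE 0.21, edgeR adjusted p = 0.575), and its groups overlapped. For Paneth cells, which store zinc, 11 of 13 markers were at 0, Lyz1 and 7 defensin genes among them, and the summed level, nearly all Mmp7, was 31.3 to 34.6 CPM in control against 57.9 to 86.5 CPM in OE-labelled libraries. The part of these shifts in the results below was not tested.

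The metallothioneins were the most abundant of the 7 genes and were more abundant in OE-labelled libraries. Mt1 (ENSMUSG00000031765, plus strand of chromosome 8, 94179082 to 94180327, build GRCm38) reached 485, 474 and 455 CPM in control replicates 1 to 3 and 1200.0, 1182 and 1074 CPM in OE-labelled replicates 1 to 3. The groups did not overlap, and within each group the libraries lay close together. The mean was 471 ± 15.2 CPM in control against 1152 ± 67.9 CPM in OE-labelled libraries (n = 3, SD), which gave a log2 fold change of 1.29 (SE 0.09) or 2.44-fold.

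Mt2 (ENSMUSG00000031762, plus strand of chromosome 8, 94172664 to 94173568) lies 5513 bases before Mt1 and reads in the same direction. It was counted at 342, 357 and 346 CPM in control against 669, 1125 and 931 CPM in OE-labelled replicates 1 to 3. OE-labelled replicate 1 was the lowest of its group, although still above all control libraries, whereas for Mt1 that replicate was the highest. The mean was 348 ± 8.05 CPM in control against 908 ± 229 CPM in OE-labelled libraries (n = 3, SD), which gave a log2 fold change of 1.38 (SE 0.15). Together Mt1 and Mt2 took 0.0801% ± 0.00152 of all counts in control against 0.208% ± 0.0233 in OE-labelled libraries (n = 3, SD). In bulk libraries, a larger share of cells that express a gene and more RNA of it per cell cannot be told apart.

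The split between both genes was then compared within libraries, since it does not depend on the scaling. Mt1 made up 58.6% of the Mt1 and Mt2 counts in control replicate 1 (95% exact binomial interval 56.3% to 60.9%, of 1794 counts), 57.0% in replicate 2 (54.7% to 59.3%, of 1772) and 56.8% in replicate 3 (54.4% to 59.1%, of 1738). These intervals overlapped. In OE-labelled libraries the share was 64.2% in replicate 1 (62.8% to 65.6%, of 4613 counts), 51.2% in replicate 2 (49.9% to 52.5%, of 5865) and 53.6% in replicate 3 (52.1% to 55.0%, of 4743). The interval of OE-labelled replicate 1 lay above every other interval and that of replicate 2 below all control intervals, so the OE-labelled libraries fell on both sides of the control. The group means were 57.5% ± 1.01 and 56.3% ± 6.92 (n = 3, SD), which differed by less than the spread among OE-labelled libraries. The intervals cover counting error only and treat each read as independent. Amplified reads can stem from the same molecule, so the intervals may be too narrow. Over the last 300 bases of their transcripts, Mt1 and Mt2 aligned with each other at 78.0% identity over 164 bases, and the other hits were Mt3 and Mt4, which had at most 2 counts in any library.

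**Figure D2:**
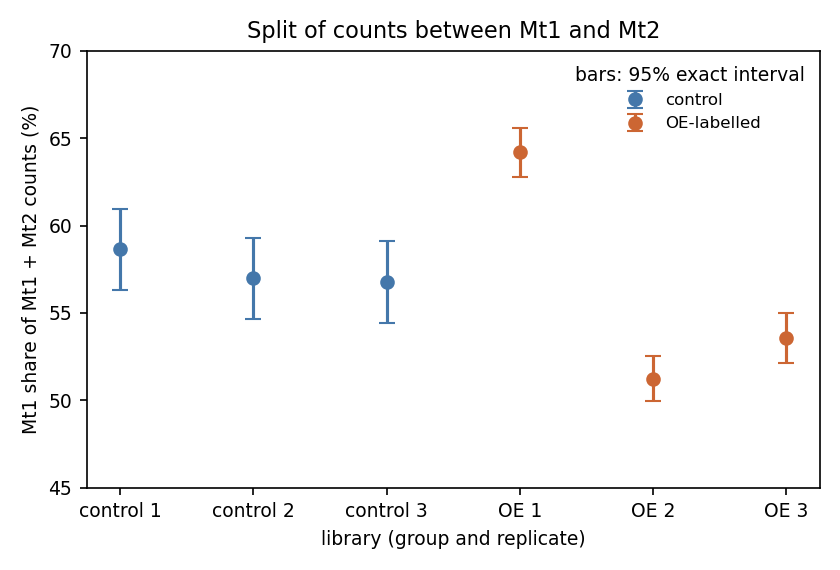
Share of Mt1 in the summed counts of Mt1 and Mt2 (%) in each library, with 95% exact binomial intervals that cover counting error only; the axis runs from 45% to 70%. The 3 control libraries lie between 56.8% and 58.6%, and the OE-labelled libraries lie at 64.2%, 51.2% and 53.6%.

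The level of the factor that drives metallothionein genes overlapped between the groups. Mtf1 (ENSMUSG00000028890, plus strand of chromosome 4, 124802104 to 124849800) was counted at 22.1, 18.8 and 21.2 CPM in control against 17.8, 22.4 and 23.7 CPM in OE-labelled libraries. OE-labelled libraries held both the lowest and the highest value. The log2 fold change was 0.04 (SE 0.19), which is also the median over all 10687 genes, and it ran from -0.04 to 0.10 over 17 alternatives, taking either sign. Mtf1 rested on 40 to 57 counts per library. It overlaps 1110065P20Rik on the opposite strand, and the strand setting of the counting is not given in the sources used here, so its counts are uncertain.

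**Figure D3:**
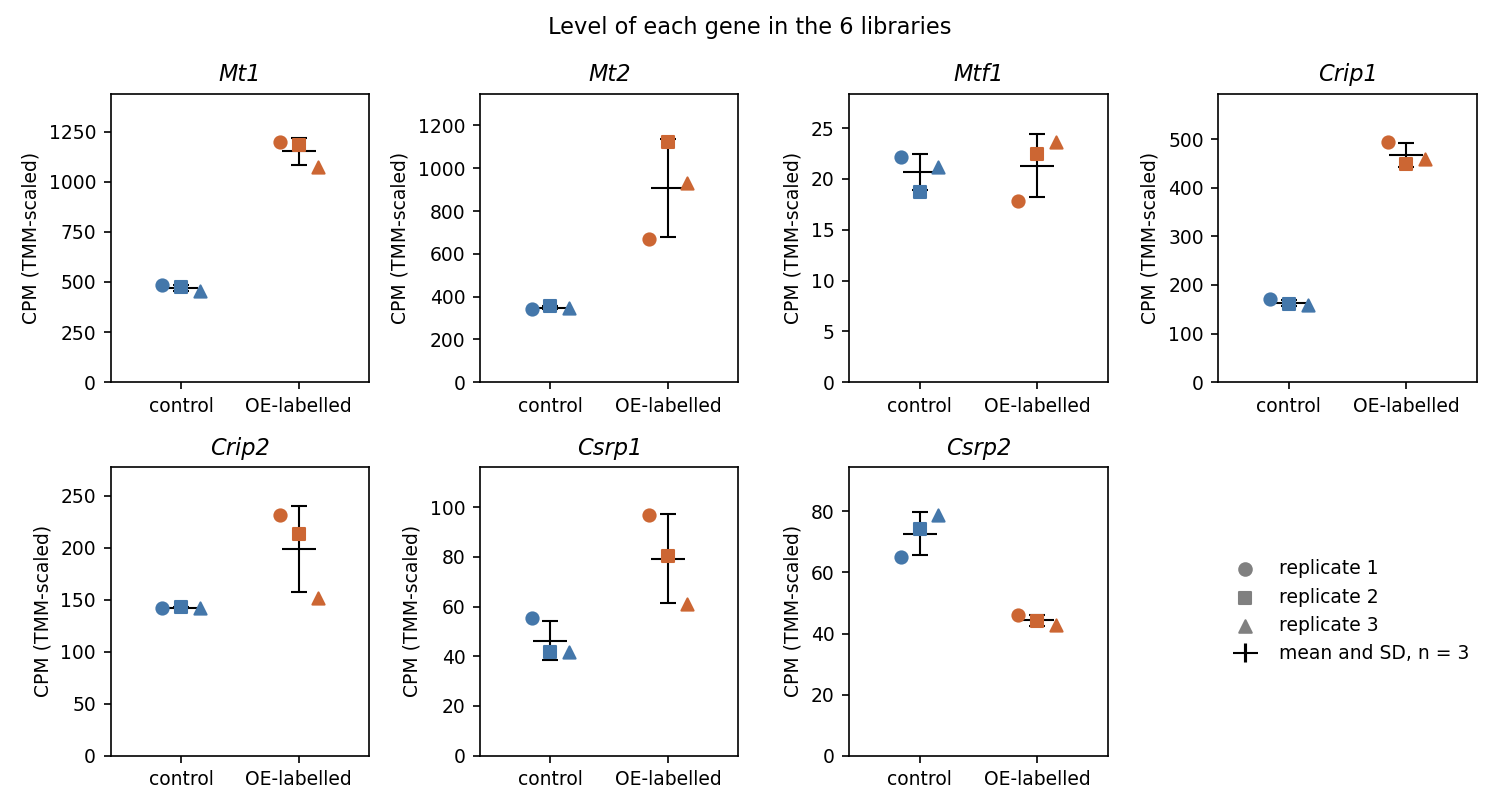
Level (TMM-scaled CPM, each axis from 0) of the zinc-binding genes in 3 control and 3 OE-labelled libraries; marker shapes give the replicate, and bars the mean and SD. Mt1, Mt2 and Crip1 are separated widely, Mtf1 overlaps between groups, and OE-labelled replicate 3 of Crip2 (152 CPM) lies close to the control libraries (up to 143 CPM).

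Among the LIM proteins, Crip1 had the largest fold change of the set. Crip1 (ENSMUSG00000006360, plus strand of chromosome 12, 113146316 to 113153879), which encodes the single-LIM cysteine-rich intestinal protein, was counted at 171, 161 and 159 CPM in control against 495, 449 and 459 CPM in OE-labelled libraries. The groups were far apart, with 449 CPM as the lowest OE-labelled value against 171 CPM as the highest control value. The mean was 164 ± 6.1 CPM and 468 ± 24.3 CPM (n = 3, SD), which gave a log2 fold change of 1.51 (SE 0.10) or 2.86-fold. By size of fold change it ranked 39 from the highest of all genes tested, with Mt2 at 70 and Mt1 at 91.

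Crip2 (ENSMUSG00000006356, plus strand of chromosome 12, 113140236 to 113145506), the relative of Crip1 with an additional LIM domain, ends 809 bases before the GENCODE gene model of Crip1 begins. The RefSeq start site of Crip1, used for the promoter window, lies further downstream, inside that model. It was counted at 142, 143 and 142 CPM in control against 231, 213 and 152 CPM in OE-labelled libraries. All OE-labelled values lay above the control, but replicate 3 did so narrowly. The log2 fold change was 0.48 (SE 0.14), with means of 142 ± 0.576 CPM and 199 ± 41.6 CPM (n = 3, SD). With an offset for GC content it was 0.22, and without OE-labelled replicate 1 it was 0.30. The paired neighbours therefore differed in size of change, 1.51 against 0.48 on the log2 scale, and the difference was not tested.

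The CSRP genes, which encode proteins with paired LIM domains, differed in opposite directions. Csrp1 (ENSMUSG00000026421, plus strand of chromosome 1, 135720061 to 135752232) was counted at 55.3, 41.8 and 41.9 CPM in control against 96.8, 80.2 and 60.9 CPM in OE-labelled libraries. OE-labelled replicate 3 (60.9 CPM) lay just above control replicate 1 (55.3 CPM). The log2 fold change was 0.78 (SE 0.18), with means of 46.3 ± 7.77 CPM and 79.3 ± 18.0 CPM (n = 3, SD). Csrp2 (ENSMUSG00000020186, plus strand of chromosome 10, 110919789 to 110939622) was counted at 65.0, 74.1 and 78.8 CPM in control against 46.2, 44.0 and 42.7 CPM in OE-labelled libraries. It was the only gene of the set whose OE-labelled libraries all lay below the control, with a log2 fold change of -0.71 (SE 0.13) and means of 72.6 ± 7.02 CPM and 44.3 ± 1.76 CPM (n = 3, SD). Smooth muscle markers that share these genes' best known tissue were near 0: Acta2, Tagln, Des and Myh11 had at most 1 count in any library and Cnn1 at most 4.

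In total 5 of the 7 genes were called higher and 1 lower in OE-labelled libraries at an edgeR adjusted p below 0.05. Of these, Crip2 kept its call in 9 of 17 alternatives and lost it in 8. Over all genes tested, 16.5% were called higher and 12.7% lower, 29.2% in all (3118 genes, and 1893, 1837 and 1748 without control replicates 1, 2 and 3). Ranges were separate between groups for the same 6 genes, as for 45.7% of all genes tested (25.3% higher and 20.5% lower). Since the genes were chosen on this comparison, nothing is read from these counts. The median log2 fold change was 0.78 for the set and 0.04 for all genes.

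The order of levels also differed between groups. Since these libraries tag each transcript at its 3′ end, CPM were set side by side between genes without division by length. In control libraries the order was Mt1, Mt2, Crip1, Crip2, Csrp2, Csrp1 and Mtf1, and no range overlapped that of its neighbour in the order. In OE-labelled libraries Mt1 (1074 to 1200.0 CPM) and Mt2 (669 to 1125 CPM) overlapped, and Csrp1 (60.9 to 96.8 CPM) stood above Csrp2 (42.7 to 46.2 CPM), the reverse of the control order. Mt1 was the gene of rank 121 by average level among all genes tested and Mtf1 that of rank 6548.

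The spread within groups separated the genes in another way. The choice of genes, made with the fold changes of this comparison known, may not have been independent of this spread. The spread was measured as the SD of log2 CPM over 3 libraries and set beside the 200 tested genes nearest in level. At the level of each gene, the median SD of those genes was larger among OE-labelled libraries than in control. It was 0.161 against 0.046 at the level of Mt1 and 0.167 against 0.051 at that of Mt2. A wider spread among OE-labelled libraries is thus not particular to these genes. Among OE-labelled libraries the SD was 0.38 for Mt2, larger than in 91% of those genes, 0.33 for Csrp1 (larger than in 87%) and 0.32 for Crip2 (larger than in 88%). It was 0.09 for Mt1, 0.07 for Crip1 and 0.06 for Csrp2, larger than in only 17.5%, 11.5% and 7.0% of genes of like level. In control libraries Crip2 was the steadiest, with an SD of 0.006, while Csrp1 was again spread, with 0.23 against a median of 0.11 for genes of its level. These are SDs of 3 values each and are given as a description.

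Sequence composition moved with the fold changes across the transcriptome, so each gene was set beside genes of like composition. Transcript GC content was 58.1% for Mt1, 55.6% for Mt2, 53.9% for Crip1, 61.1% for Crip2, 54.6% for Csrp1, 56.0% for Csrp2 and 49.4% for Mtf1. The tested genes within 1 percentage point of these values had median log2 fold changes of 0.27 for the composition of Mt1, 0.27 for Mt2, 0.25 for Crip1, 0.30 for Crip2, 0.26 for Csrp1, 0.27 for Csrp2 and 0.02 for Mtf1. With a GC offset the log2 fold changes were 1.05 for Mt1, 1.18 for Mt2, 1.35 for Crip1, 0.59 for Csrp1 and -0.93 for Csrp2. Without the offset, Mt1, Mt2 and Crip1 stood 1 or more above the median of genes of like composition, whereas Crip2 (0.48 against 0.30) stood close to it and Csrp2 (-0.71 against 0.27) stood below it.

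**Figure D4:**
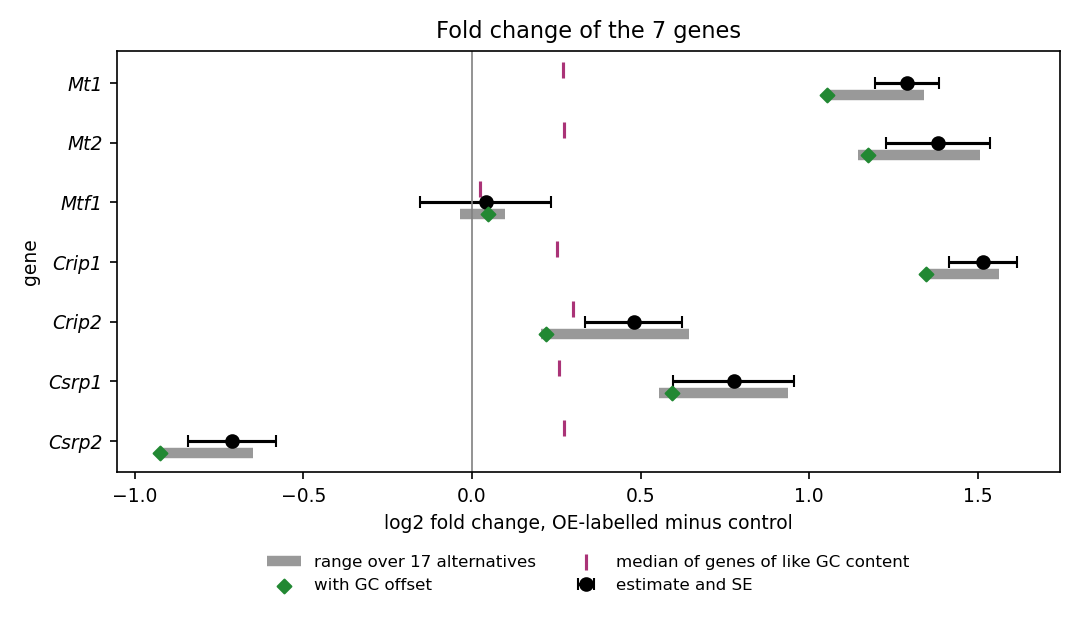
Log2 fold change of each zinc-binding gene (black point, bar 1 SE), its range over 17 processing alternatives (grey), its value with a GC offset (green) and the median of genes of like GC content (purple). Mt1, Mt2 and Crip1 stay above 1 in all alternatives, Csrp2 stays below 0, and Mtf1 takes both signs.

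The genes whose profiles over the 6 libraries were nearest were then listed, by the root mean square difference of centred log2 CPM. The search covered 5150 genes with an average of at least 5 and left out unnamed gene models, such as Gm and Rik symbols. Mt1 was nearest to Tff3 (0.09), Gjb1 (0.09) and Cbx6 (0.09), and Mt2 to Reg3b (0.10), Sprr2a3 (0.13) and Spink4 (0.14). Mt1 and Mt2 were 0.24 from each other, further apart than each was from these genes. Since the named genes were picked as the nearest of 5150, this follows largely from the choice. Reg3b, an antimicrobial lectin of the gut lining, shared the pattern of Mt2 among OE-labelled libraries, with 218, 427 and 315 CPM in replicates 1 to 3 against 107 to 130 CPM in control libraries. Sprr2a3, with near-identical family members that can share reads, had 264, 327 and 303 CPM there, and Spink4, a goblet cell product, had 1011, 1246 and 1209 CPM. In each of these, as in Mt2, replicate 1 was the lowest OE-labelled library and replicate 2 the highest. These genes were picked for nearness to Mt2 over the same libraries, which favours a like order, so nothing is read from it. Crip1 was nearest to Dmbt1 (0.10), Cyb5a (0.10) and Szrd1 (0.11), and was 0.12 from Mt1. Profiles of this kind are set mostly by the difference between groups, which all these genes share.

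Whether other genes of metal handling moved with the metallothioneins was examined with lists of zinc transporters, copper handling genes and metal, oxidative or glucocorticoid responsive genes. Of 24 zinc transporters, 17 were tested, and 3 were higher and 2 lower with the OE label at an edgeR adjusted p below 0.05, or 29.4% against 29.2% of all genes. The total of 5 was 3 with the DESeq2 test, 2 without control replicate 2 and 3 without control replicate 3. Over all genes, those fits called 2096, 1837 and 1748. The median log2 fold change of the zinc transporters was -0.02, against 0.04 for all genes. The 3 that rose and the 2 that fell all belong to the ZIP (SLC39) family of importers. Slc39a4, which takes up dietary zinc at the intestinal surface, was counted at 569, 556 and 524 CPM in control against 1007, 913 and 662 CPM in OE-labelled libraries, for a log2 fold change of 0.65 (with SE 0.14 and edgeR adjusted p = 0.00401). Under the GC offset this was 0.42 (adjusted p = 0.0396). Slc39a4 was the most abundant zinc transporter, and its OE-labelled libraries all lay above the control.

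Slc39a7, which releases zinc from the endoplasmic reticulum, rose from 52.1 ± 3.24 CPM to 92.3 ± 20.4 CPM (n = 3, SD; log2 fold change 0.82, edgeR adjusted p = 0.00297). Slc39a11 rose by 0.59 in log2 units (SE 0.15, edgeR adjusted p = 0.0103), a call lost with the GC offset (0.43) and in 3 fits without 1 library (adjusted p up to 0.0649). Slc39a14 fell by 0.89 (SE 0.25, edgeR adjusted p = 0.0203), from 15.6 to 8.43 CPM, and Slc39a13, chosen after its values were seen, fell by 0.72 (SE 0.23, edgeR adjusted p = 0.032). Slc39a14 lost its call with the DESeq2 test (adjusted p = 0.058), without control replicate 2 (0.111) and without OE-labelled replicate 2 (0.067). Slc39a13 also lost its call with the DESeq2 test and without control replicate 2, where 0 zinc transporters were called lower. Without control replicate 1, control replicate 3 or OE-labelled replicate 3, only 1 was called lower. That 1 was Slc39a14, so Slc39a13 lost its call there too. Slc30a1, the exporter shown above as a known MTF1 target and named outside the rule for naming genes, was counted at 15.4 ± 2.19 CPM and 21.1 ± 2.87 CPM (n = 3, SD), which gave a log2 fold change of 0.45 that did not pass (SE 0.21, edgeR adjusted p = 0.121), although its groups did not overlap. The remaining transporters with an average of at least 5 log2 CPM did not pass: Slc30a7 at 0.37, Slc39a9 at 0.21, Slc39a1 at 0.06 and Slc30a9 at -0.25. Slc30a7 ran from 0.22 without control replicate 2 to 0.66 without control replicate 3, and passed with the replicate block and GC offset (0.58, adjusted p = 0.0237). Slc30a9 passed without OE-labelled replicate 1 (-0.40, adjusted p = 0.0383) and was -0.07 with the GC offset, and Slc39a9 was 0.07 without OE-labelled replicate 3. The value of Slc39a1 changed sign in 4 of 17 alternatives. Slc30a2, Slc30a8, Slc30a10, Slc39a5 and Slc39a12 had 0 counts in every library.

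Of 19 copper handling genes, 15 were tested. At an edgeR adjusted p below 0.05, 5 were higher and 0 lower, or 33.3% called against 29.2% of all genes. With the DESeq2 test 3 were higher and 0 lower, where 2096 of 10687 genes were called. At an unadjusted edgeR p below 0.05 it was 8 and 0. The share of all genes at that threshold is not given here, so nothing is read from this count. The median log2 fold change of the copper genes in the edgeR fit was 0.38, against 0.04 for all genes. Atox1, the chaperone that hands copper to exporting pumps, rose from 79.7 ± 4.88 CPM to 125 ± 11.8 CPM (n = 3, SD; log2 fold change 0.65, edgeR adjusted p = 0.00197). Its log2 fold change was 0.40 under the GC offset (adjusted p = 0.0371). Slc31a1, the copper importer, rose by 0.58 (SE 0.13, edgeR adjusted p = 0.00566) and its relative Slc31a2 by 0.79 (SE 0.23, edgeR adjusted p = 0.0235). Sod1, the copper and zinc superoxide dismutase, rose by 0.38 (SE 0.10, edgeR adjusted p = 0.0162), and Heph, chosen after its values were seen, by 0.92 (edgeR adjusted p = 0.0292). Sod1 lost its call in 6 of 17 alternatives (adjusted p from 0.00162 to 0.178), the GC offset among them (0.24), and was 0.23 without OE-labelled replicate 1. Slc31a2 lost its call in 5 (from 0.0116 to 0.104). Heph lost its call at least without control replicate 1 and without OE-labelled replicate 2. In both fits only 2 copper genes were called, Atox1 and Slc31a1. The metallothioneins Mt3 and Mt4, on this list, were not tested. The total of 5 was 2 without control replicate 1 or OE-labelled replicate 2, and 3 without control replicate 2, control replicate 3 or OE-labelled replicate 3. Over all genes, fits without 1 library called 1748 to 3532.

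Genes that answer to metals, oxidants or glucocorticoids, as metallothioneins do, moved both ways. Of 20 genes 19 were tested, and 4 were higher and 3 lower, or 36.8% against 29.2% of all genes, with a median of 0.08. Fth1, the heavy chain of the iron store ferritin, rose from 1334 ± 39.8 CPM to 2561 ± 134 CPM (n = 3, SD), which gave a log2 fold change of 0.94 (with SE 0.09 and edgeR adjusted p = 4.15e-05). Keap1, the oxidant sensor that holds back the transcription factor NRF2, rose by 0.80 (SE 0.13, edgeR adjusted p = 0.00111). Ftl1 (0.50) and Hspa1b (0.58), chosen after their values were seen, were the other 2 that rose, and Ftl1, Fth1 and Hspa1b have near-identical copies that can share reads. The 3 that fell were Gclm, Gclc and Txnrd1. Gclm, a subunit of the enzyme that starts glutathione synthesis, was counted at 506, 500.1 and 537 CPM in control against 373, 330 and 321 CPM in OE-labelled libraries (log2 fold change -0.59, SE 0.10, edgeR adjusted p = 0.00119). Its value was -0.36 under the GC offset (adjusted p = 0.0476).

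Gclc, the catalytic subunit and a reported target of MTF1, chosen after its values were seen, fell by 0.73 (SE 0.12, edgeR adjusted p = 0.00125), and Txnrd1, thioredoxin reductase, fell by 0.79 (SE 0.10, edgeR adjusted p = 0.000324). All OE-labelled libraries of Gclc, Gclm and Txnrd1 lay below the control libraries. Of other responsive genes, Gsr (-0.25), Slc7a11 (-0.32), Hmox1 (0.09), Nqo1 (0.08), Srxn1 (0.10) and the glucocorticoid responsive Tsc22d3 (-0.03) and Per1 (0.67, edgeR adjusted p = 0.0951) did not pass. These 7 were named after their values were seen.

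**Figure D5:**
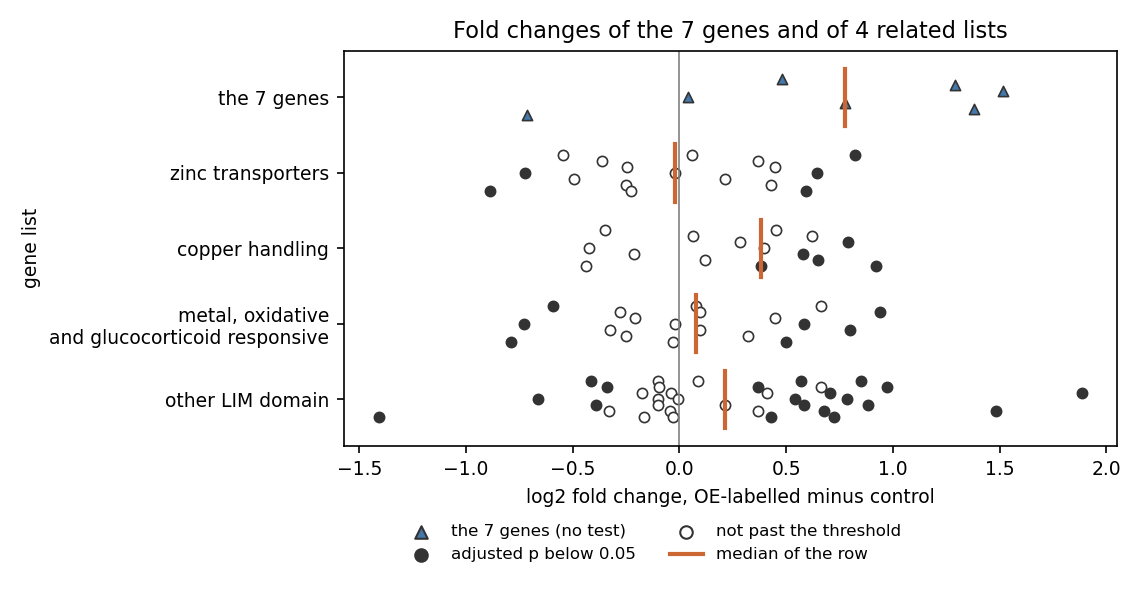
Log2 fold change of the zinc-binding genes (triangles, described without a test) and of the tested genes of 4 related lists (circles, filled where the edgeR adjusted p was below 0.05), with the median of each row. Zinc transporters lie on both sides of 0 with 3 higher and 2 lower calls, and the called copper genes all lie above 0.

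The other LIM domain genes were compared last. Of 67 listed symbols 35 were tested, and 14 were higher and 5 lower with the OE label, or 54.3% called against 29.2% of all genes, with a median log2 fold change of 0.22. The total was 11 with the GC offset, where 2436 of 10679 genes were called. It was 10, 11 and 12 when control replicates 1, 2 and 3 were left out in turn. Over all genes, those fits called 1893, 1837 and 1748. Lasp1, which binds actin, rose from 324 ± 8.49 CPM to 528 ± 22.7 CPM (n = 3, SD; log2 fold change 0.70, edgeR adjusted p = 0.000339). Limd2 rose by 0.97 (SE 0.15, edgeR adjusted p = 0.000726). Mical1, an enzyme that oxidises actin, had the largest fold change of the list, 1.89 (SE 0.32, edgeR adjusted p = 0.0011), at 3.71 ± 0.821 CPM in control against 13.9 ± 3.2 CPM in OE-labelled libraries (n = 3, SD). Scel, a protein of stratified and squamous epithelia, fell by 1.41 (SE 0.24, edgeR adjusted p = 0.0011). The closest relatives of the set, Crip3 and Csrp3, had 0 counts in all libraries.

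The tested genes were also grouped by their number of response element matches, as a description with no test of the differences. Of the 254 tested genes with 3 core matches in their best window, Mt1 and Csrp1 among them, 17.7% were called higher, and of the 87 with 4 or more, Mt2 among them, 14.9%. Of the 4891 genes with 0 matches, Crip1 and Mtf1 among them, 17.2% were called higher. It was 14.3% of the 2331 genes with 1 match and 17.6% of the 825 with 2. Over all genes tested it was 16.5%, which takes in genes without a window, such as Csrp2. The median log2 fold changes for 0, 1, 2, 3 and 4 or more matches were 0.06, 0.006, 0.07, -0.03 and 0.12.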

How the data were processed

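Per the labels' protocols, column-purified total RNA was treated with DNase and sequenced as QuantSeq forward (3′ end) libraries. STAR, HTSeq and the build mm10/GRCm38 are named in the submitters' processing notes; annotation, strand, multi-mapping and molecular identifier handling are not given in the sources used here. Estimated counts, not normalized, are what the authors deposited; 2843 values were fractional; these were rounded to whole numbers for the count test. Groups and replicate numbers came from the sample titles, and columns were matched by library name.

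All 10687 genes kept by filterByExpr were fitted without covariates (edgeR 4.0.16 quasi-likelihood test, R 4.3.3, TMM, Benjamini-Hochberg adjustment). SE is the log2 fold change divided by the square root of F. CPM are counts per 1000000 of effective library size; log2 CPM used a prior count of 2. Positions, GC content and overlaps are from GENCODE M21 (GRCm38), matched by gene identifier, and 8 tested genes had no GC value. Transcript ends were aligned with BLAST 2.17.0. The fit was tested on simulated data.

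The genes and lists were chosen with earlier results of these data known. Genes were named by rule: the 7 genes; up to 4 called genes of smallest p per list; zinc transporters averaging at least 5 log2 CPM; and 3 genes of nearest profile for Mt1, Mt2 and Crip1. Alternatives were other scalings, DESeq2 1.42.0, limma-voom (limma 3.58.1), other filters, equal depth, removal of mitochondrial genes and CT010467.1, GC offset (loess, span 0.5), replicate block, each library left out, and a threshold of 0.01. Depth is given with the results; all value columns were used.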

Additional observations from a re-analysis of the deposited data

How the results depend on the processing

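Over 17 alternatives the log2 fold changes of the 7 genes, described without a test, ran from 1.05 to 1.34 for Mt1, 1.15 to 1.51 for Mt2, 1.35 to 1.56 for Crip1, 0.20 to 0.64 for Crip2, 0.55 to 0.94 for Csrp1, -0.93 to -0.65 for Csrp2 and -0.04 to 0.10 for Mtf1. With the GC offset, and with the replicate block and GC offset, the log2 fold changes were 1.05 and 1.05 for Mt1, 1.35 and 1.35 for Crip1, 0.22 and 0.20 for Crip2, and -0.93 and -0.92 for Csrp2. Fits that left out 1 library gave 1.204 to 1.342 for Mt1 and 1.42 to 1.54 for Crip1, both lowest without OE-labelled replicate 1, 1.17 to 1.51 for Mt2, 0.30 to 0.64 for Crip2, 0.55 to 0.94 for Csrp1 and -0.80 to -0.65 for Csrp2. The difference in mean Mt1 share, -1.14 percentage points, took values from -5.07 to 1.42 with 1 library removed.

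The number of genes called, 3118, was 1578 at an adjusted p below 0.01 and 1748 to 3532 with 1 library left out. DESeq2 size factors turned the share of higher calls from 56.6% to 49.9%, library totals to 63.8%, and removal of mitochondrial genes and CT010467.1 to 47.9%, and the median over all genes tested stayed between -0.05 and 0.09. DESeq2's test gave 2096 genes, with 3 zinc transporters and 3 copper genes, and the threshold of 0.01 gave 2, 2 and, for other LIM genes, 11. The LIM count was 11 with the GC offset and 12 with the replicate block and GC offset. Over all genes, the fits with the offset called 2436 and 2700. With 1 library left out the counts were 2 to 6 for zinc transporters, 2 to 5 for copper genes and 10 to 20 for LIM genes. Slc39a1 reversed with the GC offset (-0.093), with the block and GC offset (-0.10), without mitochondrial genes and CT010467.1 (-0.0019) and without OE-labelled replicate 2 (-0.12), and leaving out single libraries gave at most 0.11. The causes were not tested.

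With the replicate block, 3112 genes were called, 2958 of them shared, and the list counts were 5 zinc transporters, 5 copper genes, 8 responsive genes and 19 LIM genes. Equal replicate numbers correlated at 0.097, 0.018 and 0.069 in their deviations from the group means, so they were not taken as pairs. For the 29 other genes named by rule, 469 of 493 alternative values kept direction and call. Further genes named in the text, such as Slc39a13, Heph and Fhl3, were not among them. At 3 counts per library (1.18 to 1.41 CPM) Igf2bp3, Mt3 and Mt4 could not be compared.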

Other observations

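The tested genes within 100 kb of the zinc-binding genes were listed, a rule chosen after the data were seen. Beside Mt1 and Mt2, neither Nup93, a nuclear pore gene 34237 bases from Mt1 (log2 fold change -0.06, SE 0.16, edgeR adjusted p = 0.789), nor Bbs2 (-0.47, SE 0.32, edgeR adjusted p = 0.293) passed the threshold. Beside Crip1 and Crip2, Pacs2 rose by 0.70 in log2 units (SE 0.20, edgeR adjusted p = 0.0177), while Mta1 (0.19), Tedc1 (0.48) and Tmem121 (-1.04, edgeR adjusted p = 0.0741) did not pass. Beside Csrp1, Lad1, an epithelial anchoring filament gene, rose by 0.52 (edgeR adjusted p = 0.00413) and Tnnt2 fell by 0.95 (edgeR adjusted p = 0.0218), and Phlda3 did not pass (0.18). Zdhhc17, 2158 bases from Csrp2, fell by 1.03 (SE 0.29, edgeR adjusted p = 0.019). On the strand opposite Mtf1, 1110065P20Rik rose from 17.5 ± 0.851 CPM to 29.3 ± 0.957 CPM (n = 3, SD; edgeR adjusted p = 0.00695). Fhl3, a LIM gene also near Mtf1, rose by 0.89 (SE 0.30, edgeR adjusted p = 0.0441), and Sf3a3 (-0.15), Inpp5b (0.23), Yrdc (0.19) and Cdca8 (0.37) did not pass.

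Of 10 epithelial markers tested, 5 were higher and 1 lower, or 60% called against 29.2% of all genes. Krt18 rose by 0.92 (edgeR adjusted p = 7.22e-05), Krt8 by 0.74, Krt19 by 0.66, Vil1 by 0.65 and Lgals4 by 0.31, and Cldn7 fell by 1.09 (SE 0.13, edgeR adjusted p = 0.000177). Epcam (0.07), Cdh1 (-0.12), Hnf4a (-0.18) and Cdx2 (0.37) did not pass.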
